A study of Mus musculus with 16 samples.

Results

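The Toll-like receptors are a family of 10 genes in the deposited tables: Tlr1, Tlr2, Tlr3, Tlr4, Tlr5, Tlr6, Tlr7, Tlr8, Tlr9 and Tlr13. They were found by exact gene symbol among 24421 genes, and all 10 had reads in every library. Expression was measured by RNA sequencing of somatosensory cortex in 4 groups of 3 libraries. CTL-WT were undisturbed wild-type C57BL/6 mice, and SD-WT were wild-type mice after 8 h of sleep disruption (SD) by gentle handling, from zeitgeber time (ZT) 20 to ZT4, with ZT0 at light onset. CTL-AcPbKO and SD-AcPbKO were the same 2 conditions in mice homozygous for loss of AcPb, the neuron-specific isoform of the interleukin-1 receptor accessory protein encoded by Il1rap. All groups were collected at ZT4, and all mice were described as males aged 2 to 3 months from lines bred for 5 to 7 generations. The labels name no tissue-restricted driver for the loss of AcPb, and nothing in them ties wild-type and AcPb-/- mice to the same litters.

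Toll-like receptors are membrane proteins that recognise microbial molecules, and some products of damaged host cells, through an ectodomain of leucine-rich repeats. Tlr1, Tlr2, Tlr4, Tlr5 and Tlr6 act at the cell surface on lipopeptides, lipopolysaccharide and flagellin, whereas Tlr3, Tlr7, Tlr8, Tlr9 and Tlr13 act in endosomes on nucleic acids. Ligand binding joins the cytoplasmic TIR domains to the adaptors Myd88 or Ticam1, which lead through IRAK and TRAF proteins to NF-kappa-B and interferon regulatory factors. The interleukin-1 receptor family shares the TIR domain and Myd88. AcPb belongs to that family, but these data do not show whether AcPb itself acts through Myd88. In brain the receptors are known mostly from microglia, and Tlr3 also from astrocytes and neurons.

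Total reads on genes were lower in controls than after SD, at 32870075 to 41615582 in CTL-WT and 26504840 to 35683409 in CTL-AcPbKO against 58770286 to 71775967 in SD-WT and 63413467 to 71857505 in SD-AcPbKO. The 10 receptors together held 841 to 2231 reads per library. Il1rap had 933 to 2946 reads in every library, and gene-level counts do not resolve AcPb, so they could not check the genotype. The libraries CTL-WT 02, CTL-WT 03, CTL-AcPbKO 04 and CTL-AcPbKO 05 held 25352 to 39358 reads of Xist, the RNA of the inactive X chromosome, and 0 to 2 reads summed over 4 Y-linked genes. The other 8 libraries held 5 to 13 Xist reads and 5105 to 10593 Y-linked reads. This goes against the male label for those 4 control libraries, and no SD library was of that kind. The counts of receptors past the threshold are therefore also given without them. Counts of groups that do not overlap, and most counts of other genes, are not. All 10 cortical neuron markers, such as Slc17a7 and Gad1, had reads in every library, the fewest being 1312 for Neurod6. All 16 microglia markers also had reads in every library. Markers of other brain regions were not read for comparison. Whether the libraries of a group came from separate mice is implied by the group sizes in the labels but not stated library by library. The p-values set differences against the spread between these libraries, which in controls includes Xist status.

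In the mouse genome (GRCm38, GENCODE annotation) the surface receptors lie on autosomes and 3 of the endosomal receptors lie on the X chromosome. Tlr1 (chr5:64924679-64933563, minus strand) and Tlr6 (chr5:64952031-64960097, minus strand) are neighbours, as are Tlr8 (chrX:167242696-167264329, minus strand) and Tlr7 (chrX:167304929-167330558, minus strand). Tlr13 lies at chrX:106143204-106160493 on the plus strand. Tlr2 lies at chr3:83836272-83841767 and Tlr3 at chr8:45395665-45411080, both on the minus strand. Tlr4 (chr4:66827584-66930284), Tlr5 (chr1:182954788-182976044) and Tlr9 (chr9:106222598-106226883) lie on the plus strand. Exons of Tlr3 overlap those of Gm45542 on the other strand. The counting is not stated to have used strand, and without it single reads of these genes cannot be told apart over 3.32% of the 100-base stretches of Tlr3.

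Tlr1 and Tlr6, which pair with Tlr2 to read triacylated and diacylated lipopeptides, are near copies in part of their coding sequence. They shared 259 stretches of 100 bases, 7.89% of those of Tlr1 and 7.09% of those of Tlr6, so counts of both are uncertain there. The longest identical stretch is 229 bases of coding exon, at chr5:64925537-64925765 in Tlr1 and chr5:64953828-64954056 in Tlr6 (GRCm38, minus strand). It is shown because a read inside it cannot by itself be assigned to either gene. The study's methods give paired reads, so a mate outside the stretch could place some of them.
Tlr1 and Tlr6: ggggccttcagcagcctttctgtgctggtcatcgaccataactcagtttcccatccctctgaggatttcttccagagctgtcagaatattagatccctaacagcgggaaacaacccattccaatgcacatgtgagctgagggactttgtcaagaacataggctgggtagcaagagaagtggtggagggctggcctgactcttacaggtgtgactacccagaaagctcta

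Promoter windows from RefSeq (GRCm38.p6, the 250 bases before each start) were found for 8 of the 10 receptors in 10 windows, and none for Tlr4 and Tlr7. Windows are printed for the 3 receptors whose 6 SD libraries did not overlap the 6 control libraries (below), without bases that GENCODE places in an exon. Capitals mark matches, on either strand, to 5 motifs: GAGGAAG (PU.1-type), TGACTCA (AP-1), GGGNNTTCC (kappa-B-type), CACGTG (E-box) and GAAA followed after any 2 bases by another GAAA (interferon-response-type).
Tlr2, chr3:83841768-83841858, minus strand: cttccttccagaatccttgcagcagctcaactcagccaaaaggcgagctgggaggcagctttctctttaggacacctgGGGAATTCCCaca
Tlr9, chr9:106222348-106222597, plus strand: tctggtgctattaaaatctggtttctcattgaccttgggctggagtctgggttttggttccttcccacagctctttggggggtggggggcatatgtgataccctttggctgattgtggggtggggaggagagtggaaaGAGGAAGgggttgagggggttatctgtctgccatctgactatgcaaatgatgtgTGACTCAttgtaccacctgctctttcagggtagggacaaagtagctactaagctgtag
Tlr13, chrX:106143025-106143203, plus strand: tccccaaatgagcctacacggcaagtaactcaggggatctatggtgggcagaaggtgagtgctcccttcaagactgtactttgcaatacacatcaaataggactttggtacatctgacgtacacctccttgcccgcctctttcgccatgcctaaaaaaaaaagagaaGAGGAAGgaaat
The Tlr2 window of 91 bases holds a kappa-B-type match that reads on both strands, at bases 79 and 80, and 1.49% of all 32851 windows of that length hold one. The Tlr9 window holds the PU.1-type letters at base 139 (10.6% of 250-base windows) and the AP-1 letters at base 193 (4.46%). The Tlr13 window of 179 bases holds the PU.1-type letters at base 168, as do 7.24% of windows of that length. Over the full 250 bases, Tlr1 also held a PU.1-type match and an E-box, the latter found in 6.02% of all windows, and Tlr6 an interferon-response-type match (2.98%). The windows of Tlr3, Tlr5 and Tlr8 held none of the 5 motifs. A match is a description of letters and not of a bound factor.

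Levels of the receptors were compared per kilobase of exon, as joint normalized counts (reads divided by a size factor estimated over the 12 libraries). Tlr3, the sensor of double-stranded RNA, was highest at 147.5 ± 16.8 per kb (standard deviation over 12 libraries, as for the other receptors). Tlr7 (48.7 ± 10.9) and Tlr9 (40.5 ± 8.74), sensors of single-stranded RNA and of CpG DNA, followed, and Tlr13, a mouse sensor of bacterial ribosomal RNA, was next at 28.9 ± 4.52. The endosomal receptors thus held the first 4 places, and Tlr8 the last at 2.84 ± 1.15. Surface receptors lay between them: Tlr2 at 15.3 ± 3.15, Tlr4 at 13.4 ± 2.84, Tlr1 at 9.05 ± 1.18, Tlr6 at 7.47 ± 1.72 and Tlr5, the flagellin receptor, at 6.35 ± 1.36. Only the steps from Tlr3 to Tlr7, from Tlr13 to Tlr2 and from Tlr5 to Tlr8 separated neighbours whose ranges over the 12 libraries did not overlap. By group means Tlr9 ranked above Tlr7 in both control groups and Tlr7 above Tlr9 in both SD groups. In SD-AcPbKO, Tlr13 also ranked above Tlr9.

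**Figure D1:**
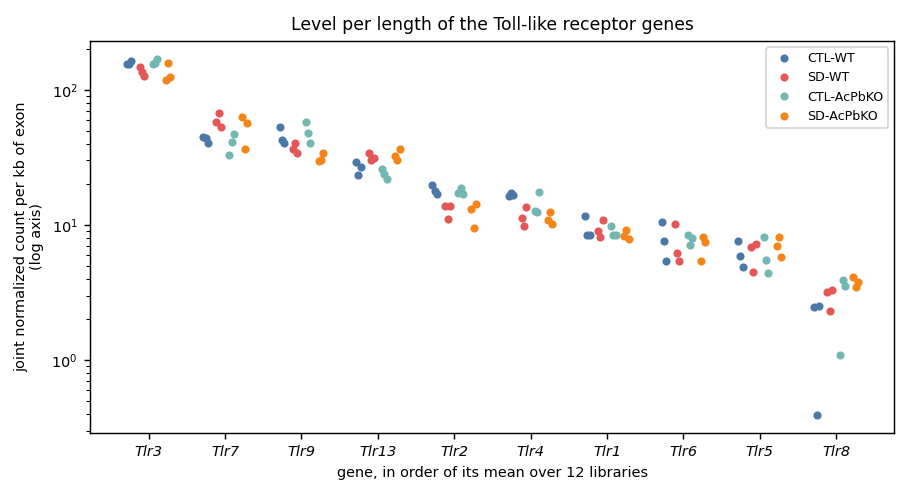
Joint normalized count per kilobase of exon (log axis) of the 10 receptor genes, ordered by their mean over 12 libraries; each point is 1 library, coloured by group. Tlr3 lies apart at the top (118.4 to 170.6 per kb) and Tlr8 at the bottom (0.393 to 4.10 per kb), and the points of Tlr7, Tlr9 and Tlr13 run into each other.

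After SD, 4 receptors fell and 2 rose when both genotypes were fitted together. The same direction was estimated in each genotype for all 10, though for Tlr1 and Tlr5 in wild-type mice it rested on differences of only -0.012 and 0.0097. How many of all genes had the same direction in both genotypes was not counted. Each comparison was tested with limma on log2(normalized count + 1) over all genes with a read, with Benjamini-Hochberg adjusted p under 0.05 as the threshold, and differences are SD minus control on that scale, which understates changes of low genes. Over both genotypes (6 against 6), 6 of 10 receptors passed, beside 41.5% of all 20978 genes tested. Tlr2, Tlr3, Tlr4 and Tlr9 were lower (20.3% of all genes were) and Tlr7 and Tlr13 higher (21.2%). In wild-type mice (3 against 3) 2 of 10 passed, beside 25.4% of all genes, with Tlr4 lower (12.2% of all genes) and Tlr7 higher (13.2%). Of the 10, 2 also passed in AcPb-/- mice, beside 27.4%, with Tlr9 lower (13.3%) and Tlr13 higher (14.1%). The median difference of the 10 receptors over both genotypes was -0.09, and that of all genes tested was 0.0029. In bulk tissue, fewer cells of a type and less RNA per cell cannot be told apart.

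Fewer receptors passed when the 4 control libraries with Xist reads were left out, which leaves 1 control per genotype whose spread is taken to be like that of the other groups. Over both genotypes 2 of 10 then passed, Tlr9 (lower) and Tlr8 (higher), beside 24.7% of all genes. Tlr9 alone passed when a term for Xist reads was added instead, beside 30.8% of all genes. In wild-type mice no receptor passed without these libraries, where 3.31% of all genes did, and in AcPb-/- mice Tlr8 (higher) and Tlr9 (lower) did, beside 10.1% of all genes. Fewer genes of all kinds passed in these fits, and every difference of the 6 receptors kept its sign. Their sizes without the libraries were -0.55 for Tlr2, -0.20 for Tlr3, -0.35 for Tlr4, 0.51 for Tlr7, -0.70 for Tlr9 and 0.24 for Tlr13.

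**Figure D2:**
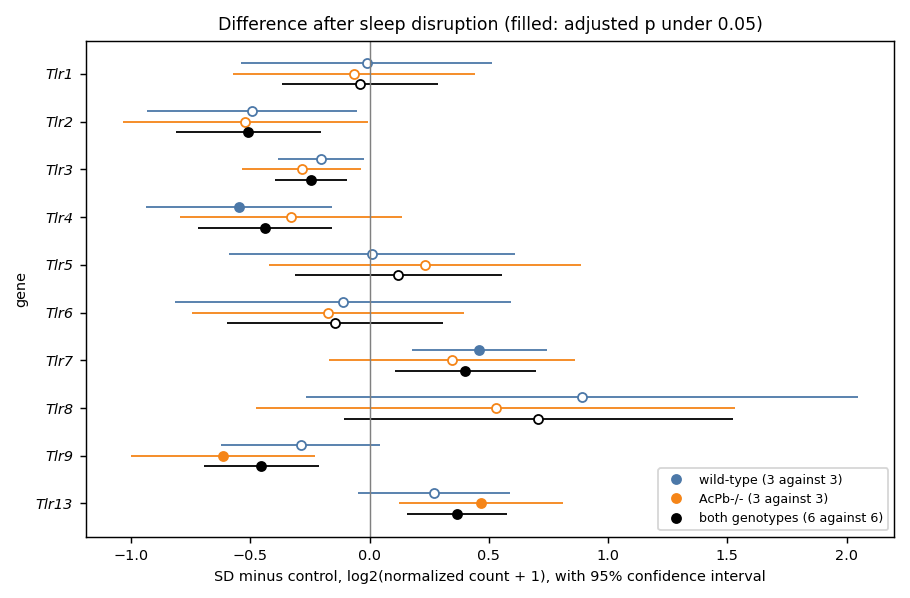
SD minus control on the log2(normalized count + 1) scale for each receptor, in wild-type mice, in AcPb-/- mice and over both genotypes; lines are 95% confidence intervals and filled points have an adjusted p under 0.05. The intervals of Tlr2, Tlr3, Tlr4 and Tlr9 over both genotypes lie below 0 and those of Tlr7 and Tlr13 above it, whereas Tlr8 has the widest interval (-0.11 to 1.52).

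Among the surface receptors, Tlr2, the partner of Tlr1 and Tlr6 in lipopeptide recognition, was lower in every SD library than in every control library. Joint normalized counts were 59.5, 53.5 and 51.4 in CTL-WT and 41.8, 33.2 and 41.5 in SD-WT. They were 52.2, 56.5 and 50.9 in CTL-AcPbKO and 39.5, 28.8 and 43.3 in SD-AcPbKO. The groups did not overlap in either genotype, and the control without Xist reads was within or above the range of the other controls. Tlr2 fell by 0.51 over both genotypes (SE 0.14, adjusted p = 0.0106, limma). The call was lost when all libraries were thinned to the depth of the shallowest (-0.51, adjusted p = 0.0562). Within a genotype the differences were -0.49 (SE 0.20, adjusted p = 0.0958) and -0.52 (SE 0.23, adjusted p = 0.124), and neither passed.

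Tlr4, the lipopolysaccharide receptor, stood at 91.1, 95.8 and 92.8 in CTL-WT and at 62.0, 54.8 and 75.5 in SD-WT. In CTL-AcPbKO it was 70.4, 68.9 and 97.6, and in SD-AcPbKO 60.4, 68.7 and 56.8. The wild-type groups were well apart, whereas SD-AcPbKO 03 came within 1 joint normalized count of CTL-AcPbKO 04. Tlr4 fell in wild-type mice by 0.55 (SE 0.18, adjusted p = 0.0438) and over both genotypes by 0.44 (SE 0.13, adjusted p = 0.0155). In AcPb-/- mice the difference was -0.33 (SE 0.20, adjusted p = 0.279). The wild-type call was lost on leaving out any 1 library other than SD-WT 04, with adjusted p of up to 0.155, and with DESeq2 (0.0568).

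Tlr1, Tlr5 and Tlr6 did not pass in any comparison. Tlr1 ranged from 27.9 to 39.2 in controls and from 26.2 to 36.3 after SD, a difference of -0.04 with a 95% confidence interval of -0.37 to 0.29 over both genotypes. Tlr5 ranged from 21.2 to 39.1 in controls and from 21.6 to 39.3 after SD, with an interval of -0.31 to 0.56. Tlr6 ranged from 20.1 to 39.2 in controls and from 19.99 to 37.7 after SD, with an interval of -0.60 to 0.31. Each had 15 to 60 reads per library, and differences of the sizes inside these intervals cannot be told from 0 with these libraries. In both genotypes the control without Xist reads had the highest value of its group for Tlr1, Tlr5 and Tlr6, and without the Xist libraries the difference of Tlr5 turned to -0.28.

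Of the endosomal receptors, Tlr9, which detects unmethylated CpG DNA, passed over both genotypes under every alternative tried. It was 184, 148 and 141 in CTL-WT, 127, 139 and 118 in SD-WT, 202, 166 and 140 in CTL-AcPbKO and 104, 105 and 118 in SD-AcPbKO. All 6 SD libraries lay below all 6 controls, by a margin of less than 1 joint normalized count between SD-WT 02 and CTL-AcPbKO 05. The controls without Xist reads were the highest of each genotype. Tlr9 fell in AcPb-/- mice by 0.62 (SE 0.17, adjusted p = 0.0276) and over both genotypes by 0.45 (SE 0.11, adjusted p = 0.00546). In wild-type mice the difference was -0.29 (SE 0.15, adjusted p = 0.190). Over the 22 alternatives its adjusted p ran from 0.000642 to 0.0147. The AcPb-/- call was lost on leaving out any 1 library other than CTL-AcPbKO 05, with adjusted p of 0.0528 to 0.0942.

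Tlr3 was 805, 807 and 849 in CTL-WT and 775, 701 and 664 in SD-WT. CTL-AcPbKO stood at 811, 828 and 889 and SD-AcPbKO at 616, 817 and 652. SD-AcPbKO 03 reached the control level, and the other 5 SD libraries lay below every control. Tlr3 fell by 0.25 over both genotypes (SE 0.07, adjusted p = 0.0121), the smallest difference of the 6 receptors that passed. The differences within a genotype were -0.20 (SE 0.08, adjusted p = 0.0914) and -0.28 (SE 0.11, adjusted p = 0.0874). Without SD-AcPbKO 03 the difference in AcPb-/- mice was -0.41 (adjusted p = 0.0110), and with all 4 groups in one fit it was -0.29 (adjusted p = 0.0409).

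Tlr7, which detects single-stranded RNA, was 182, 179 and 164 in CTL-WT and 237, 274 and 216 in SD-WT. In CTL-AcPbKO it was 134, 168 and 192, and in SD-AcPbKO 258, 148 and 233. Every SD-WT library was above every control of either genotype, but SD-AcPbKO 03 fell among the controls. Tlr7 rose in wild-type mice by 0.46 (SE 0.13, adjusted p = 0.0240) and over both genotypes by 0.40 (SE 0.14, adjusted p = 0.0316). In AcPb-/- mice the difference was 0.35 (SE 0.23, adjusted p = 0.304), and without SD-AcPbKO 03 it was 0.59 (adjusted p = 0.0499). The wild-type call was lost without CTL-WT 02 (adjusted p = 0.0680), CTL-WT 03 (0.0666), SD-WT 01 (0.0725) or SD-WT 02 (0.110). The call over both genotypes was lost without any 1 of CTL-WT 02, CTL-WT 03, CTL-AcPbKO 03, SD-WT 01, SD-WT 02, SD-AcPbKO 02 and SD-AcPbKO 04, with adjusted p of 0.0525 to 0.0843.

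Tlr13 was 125, 101 and 116 in CTL-WT, 148, 130 and 136 in SD-WT, 111, 102 and 94.8 in CTL-AcPbKO and 140, 130 and 157 in SD-AcPbKO. All 6 SD libraries lay above all 6 controls. Tlr13 rose in AcPb-/- mice by 0.47 (SE 0.15, adjusted p = 0.0493) and over both genotypes by 0.37 (SE 0.10, adjusted p = 0.00788). In wild-type mice the difference was 0.27 (SE 0.14, adjusted p = 0.203). The controls without Xist reads, 125 and 111, were the highest of their groups and closest to the SD libraries. The AcPb-/- call was lost on leaving out any 1 library other than CTL-AcPbKO 03, with adjusted p of up to 0.165.

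Tlr8, a neighbour of Tlr7 on the X chromosome, had 1 to 9 reads in controls and 10 to 19 after SD. Joint normalized counts were 8.86, 1.41 and 8.94 in CTL-WT, 11.5, 8.30 and 11.8 in SD-WT, 3.91, 14.1 and 12.7 in CTL-AcPbKO and 14.7, 12.4 and 13.5 in SD-AcPbKO. The controls reached into the range of the SD libraries and also fell well below it. The difference over both genotypes was 0.71 (SE 0.38, adjusted p = 0.158), and the low end came from 2 controls, CTL-WT 02 and CTL-AcPbKO 03. Without the Xist libraries, CTL-AcPbKO 03, with 3 reads, is the only AcPb-/- control, and the difference there was 1.60. In wild-type mice the only control left is CTL-WT 01, with 7 reads, and the difference was 0.21. Its count of 8.86 lies within the range of SD-WT. All 3 X-linked receptors had positive differences. Over X-linked genes in all (543 genes averaging 10 or more joint normalized counts, Xist and Tsix left out) the median difference was 0.03, and 53.8% were positive. Over 14887 autosomal genes of that level the median difference was 0.00, and 50% were positive. The part of Xist status in the X-linked receptors' differences was not tested.

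**Figure D3:**
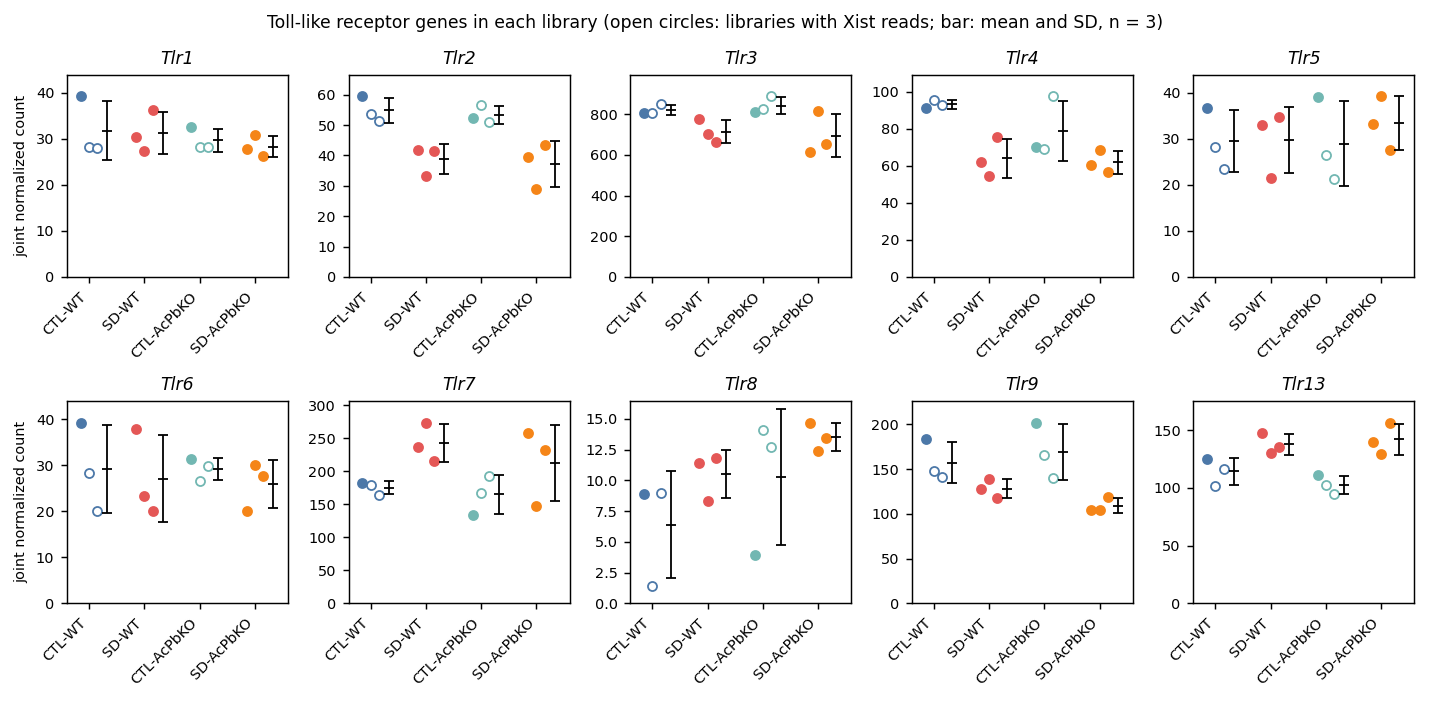
Joint normalized count of each receptor in each of the 12 libraries. Open circles are the 4 control libraries with Xist reads, and the bar beside each group is its mean and standard deviation (n = 3). For Tlr2 and Tlr9 every SD library sits below every control and for Tlr13 above, while SD-AcPbKO 03, the second of its group, sits among the controls for Tlr3 and Tlr7.

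Groups that do not overlap were not rare in these data. Over both genotypes 3 of 10 receptors did not overlap, beside 22.2% of all genes, with Tlr2 and Tlr9 lower (10.5% of all genes) and Tlr13 higher (11.6%). In wild-type mice 6 of 10 did not overlap, beside 40.2%, with Tlr7 and Tlr13 higher (20.5%) and Tlr2, Tlr3, Tlr4 and Tlr9 lower (19.7%). The groups of AcPb-/- mice did not overlap for 4 of 10, beside 42.3%, with Tlr13 higher (21.7%) and Tlr2, Tlr4 and Tlr9 lower (20.7%).

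No receptor passed between the genotypes, in controls or after SD, and no response to SD was shown to differ between them. In controls, 0 of 10 receptors passed with limma, edgeR or DESeq2, beside 0.0197%, 0.0395% and 0.459% of all genes with these tools in turn, and none had an unadjusted p under 0.05 in limma (8.53% of all genes did), the lowest being 0.212 for Tlr4. After SD, 0 of 10 passed with any of these tools, beside 0.0145%, 0.0436% and 0.470%, again with none at an unadjusted p under 0.05 (6.13% of all genes), the lowest being 0.130 for Tlr9. Tlr4 in controls had a mean joint normalized count of 79.0 ± 16.2 in AcPb-/- mice and 93.2 ± 2.35 in wild-type mice (standard deviation, n = 3). The difference was -0.25 with a 95% confidence interval of -0.68 to 0.17. After SD the only receptor whose groups did not overlap was Tlr8, higher in AcPb-/- mice by 0.35 (interval -0.25 to 0.96), beside 11.4% of all genes that did not overlap and 5.35% that did so higher. The difference of the 2 SD responses was tested as an interaction over 12 libraries, and 0 of 10 receptors passed, beside 0.00% of all genes, with none at an unadjusted p under 0.05 in limma (4.00% of all genes) and none past the threshold with edgeR (0.00%) or DESeq2 (0.00477%). The interaction was largest in relation to its error for Tlr9, at -0.33 (AcPb-/- minus wild-type response, interval -0.81 to 0.15, adjusted p = 0.986). For Tlr3, the most deeply counted receptor, the interval was -0.38 to 0.22, and for Tlr8, the least, -1.99 to 1.27. A receptor past the threshold in 1 genotype and not in the other was therefore not shown to respond differently.

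Genes that act with the receptors were read from 8 lists of 56 genes. Over both genotypes 14 rose and 10 fell (limma), a share close to the 41.5% of all genes tested. In wild-type mice 10 rose and 5 fell, and in AcPb-/- mice 10 rose and 4 fell of 55 tested, shares close to the 25.4% and 27.4% of all genes. No gene of these lists passed between genotypes or in the interaction with limma, edgeR or DESeq2. An unadjusted p under 0.05 in limma was found for 3 genes in controls, 5 after SD and 2 in the interaction. Of all genes 8.53%, 6.13% and 4.00% had one. Without the Xist libraries 11 rose and 7 fell over both genotypes, beside 13.4% and 11.3% of all genes in that fit. Of the 24 genes of the full fit, 14 also passed there.

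Genes for folding and transport of the receptors moved in both directions. Hsp90b1, the endoplasmic reticulum chaperone that folds most Toll-like receptors, rose by 0.81 (SE 0.08, adjusted p = 0.000236) in wild-type mice and by 1.06 (SE 0.07, adjusted p = 0.000444) in AcPb-/- mice. Its co-chaperone Cnpy3 fell by 0.28 and 0.35 (adjusted p = 0.0136 and 0.0103). Ap3b1, a subunit of the adaptor complex that sorts endosomal receptors, rose by 0.28 and 0.40. Atp6ap2, an accessory subunit of the proton pump that acidifies endosomes, fell in AcPb-/- mice by 0.28 (SE 0.07, adjusted p = 0.0235). Over both genotypes 2 of the 6 genes of this list rose and 3 fell, beside 21.2% and 20.3% of all genes. The third that fell was Unc93b1, which escorts the endosomal receptors, at -0.30 (adjusted p = 0.00498, limma, named after its value was seen).

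Among co-receptors and ligand transfer proteins, 1 of 6 rose and 3 fell over both genotypes, beside 21.2% and 20.3% of all genes. Cd180, a surface protein related to Tlr4 that pairs with Ly86, fell from 122 ± 16.4 to 72.9 ± 13.4 joint normalized counts (standard deviation, n = 6). The fall was 0.75 (SE 0.14, adjusted p = 0.00100, limma). In wild-type mice Cd180 fell by 0.76 (adjusted p = 0.00491), and in AcPb-/- mice, where none of the 6 passed, its difference was -0.73 (adjusted p = 0.0539). The other 3 of this list that passed over both genotypes, named after their values were seen, were Cd36 (-0.87) and Cd14 (-0.31), lower, and Ly96 (0.51), higher. Cd14 hands lipopolysaccharide to Tlr4, and Ly96 binds it there.

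The adaptors and kinases that passed were mostly higher. Myd88, the adaptor of all members but Tlr3, rose by 0.48 (SE 0.12, adjusted p = 0.0214) in AcPb-/- mice, and in wild-type mice by 0.40 (adjusted p = 0.0499). Ticam1, the adaptor of Tlr3 and Tlr4, rose by 0.38 in wild-type mice (SE 0.11, adjusted p = 0.0346) and had a difference of 0.31 over both genotypes (adjusted p = 0.00336). Pik3ap1 fell over both genotypes by 0.30 and is the third of 6 adaptors that passed (named after its value was seen), beside 41.5% of all genes. Of 15 kinases and ubiquitin ligases 7 rose and 2 fell over both genotypes, beside 21.2% and 20.3% of all genes. Traf3, a ubiquitin ligase of interferon signalling, rose by 0.46 and 0.35 (adjusted p = 0.000585 and 0.00456 in wild-type and AcPb-/- mice). Irak2, Tab2, Tab3 and Ikbkb, which carry the signal towards NF-kappa-B, rose over both genotypes by 0.36, 0.36, 0.29 and 0.22. Ikbkg, the regulatory subunit of the same kinase complex as Ikbkb, fell by 0.43 and 0.45 (adjusted p = 0.000962 and 0.00225).

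Few genes of the lists further downstream passed over both genotypes, beside 41.5% of all genes. Of 5 transcription factors only Irf3 rose, by 0.28 over both genotypes (SE 0.05, adjusted p = 0.000782), and of 8 inhibitors only Socs1 passed, at -0.64 (adjusted p = 0.0228; named after its value was seen). None of 8 induced cytokines and chemokines, Tnf, Il1b, Il6 and Ifnb1 among them, passed in limma, edgeR or DESeq2 over both genotypes, 2 had an unadjusted p under 0.05 in limma (48.4% of all genes), and several had fewer than 10 reads per library. Of the 2 other mouse receptor genes, Tlr11 was at 0 reads in all 6 controls and at 1 to 4 reads after SD, too few for a fold change. Tlr11 passed over both genotypes, but not when all libraries were thinned to the same depth, and Tlr12 did not pass.

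**Figure D4:**
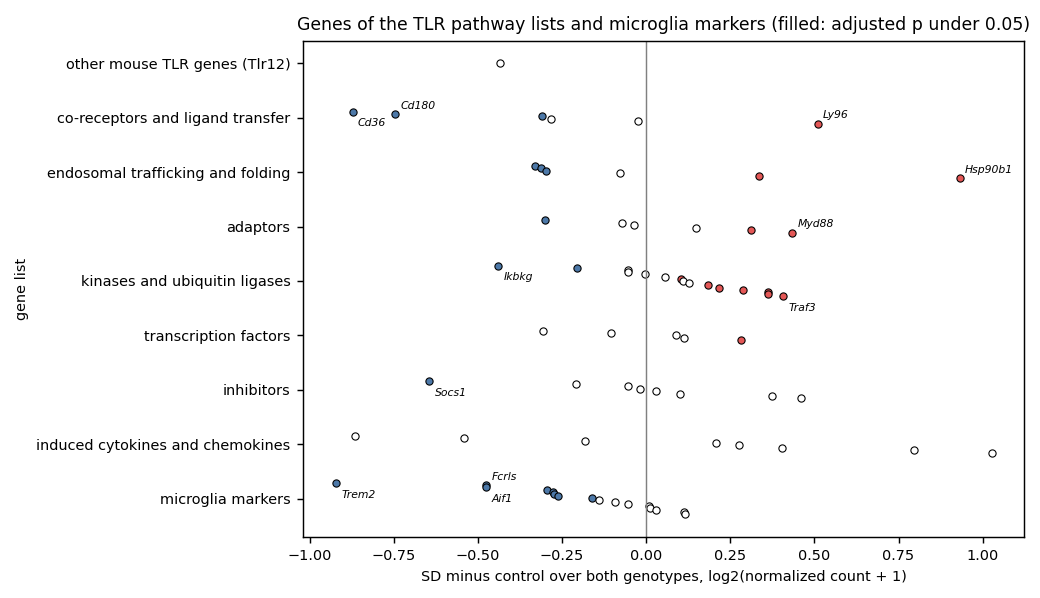
SD minus control over both genotypes on the log2(normalized count + 1) scale for the genes of the 8 pathway lists (Tlr11 left out) and the 16 microglia markers; filled points have an adjusted p under 0.05, red higher and blue lower. Filled points lie on both sides of 0 for the trafficking genes, co-receptors and kinases, and no microglia marker is filled to the right of 0.

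Of 16 microglia markers, which label the cells these receptors are best known from, 8 fell and none rose over both genotypes with limma, edgeR and DESeq2 alike, beside 20.3% of all genes that were lower with limma. Their median difference was -0.15, and 5 of the 16 differences were positive. In AcPb-/- mice 6 of 16 fell and none rose (13.3% of all genes fell), and in wild-type mice 3 fell and 1 rose (12.2% and 13.2%). Their summed joint normalized count was 25330 to 26810 in CTL-WT and 23760 to 25630 in SD-WT, which overlap, and 24590 to 25510 in CTL-AcPbKO and 19070 to 22480 in SD-AcPbKO, which do not. Between genotypes after SD 0 of the 16 passed, and 15 of the 16 differences were negative (AcPb-/- lower). For 9 of them the groups did not overlap, beside 11.4% of all genes. All 16 had reads in every library. Their part in the lower values of Tlr2, Tlr3, Tlr4 and Tlr9, or in the higher values of Tlr7 and Tlr13, was not tested. Of 10 cortical neuron markers 4 rose and 4 fell over both genotypes, beside 21.2% of all genes that rose and 20.3% that fell. Endothelial cells, astrocytes and oligodendrocytes had 6 markers each. Over both genotypes 3 endothelial markers rose and 1 fell, 2 astrocyte markers fell, and 2 oligodendrocyte markers fell. In wild-type mice 4 of the 6 oligodendrocyte markers fell, beside 12.2% of all genes. The part of these other cell types in the receptors' differences was not tested either. Without the Xist libraries 2 of 16 microglia markers fell over both genotypes, beside 11.3% of all genes. Of the 8 neutrophil and monocyte markers in the tables none passed over both genotypes, their sum was 36.4 to 842 in SD-AcPbKO and 39.4 to 151 in the other groups, and the highest sum came from SD-AcPbKO 04, led by S100a9, S100a8 and Ngp. Without that library 5 of 10 receptors passed over both genotypes, the 6 named above less Tlr7, beside 38.3% of all genes, and none passed in AcPb-/- mice, beside 17.6%. Border macrophage markers summed to 699 to 1080 in controls and 912 to 1246 after SD. Of these 8 markers 2 were higher and 1 lower over both genotypes, beside 21.2% and 20.3% of all genes.

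After each group's mean was removed, the genes that varied most like each receptor over the 12 libraries were found among 14101 genes that averaged 50 or more joint normalized counts. The nearest to Tlr3 were Igdcc4 (Pearson r = 0.98) and Pstk (0.96), to Tlr4 Adk (0.96) and BC004004 (0.96), and to Tlr7 Grpr (0.93) and Mrpl39 (0.93). For Tlr9 they were Sh3bp2 (0.96) and Lsamp (0.95), and for Tlr13 Arrb2 (0.92) and Sept9 (0.90). The median r over all genes was between -0.04 and 0.01 for these 5 receptors. Libraries within a control group still differ in Xist status and depth, so the highest of 14101 values is a description only.

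**Figure D5:**
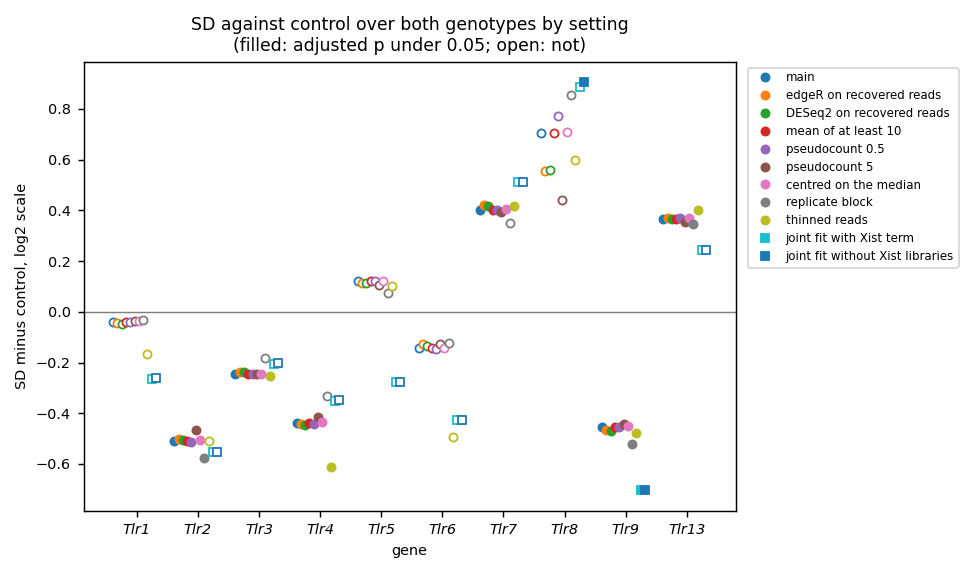
SD minus control over both genotypes for each receptor as reported and under 10 alternatives (squares: fits that model or leave out the libraries with Xist reads); filled points have an adjusted p under 0.05. Tlr9 is filled throughout, Tlr2, Tlr3, Tlr4, Tlr7 and Tlr13 lose their fill in both Xist fits without changing side, and Tlr5 changes side there.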

How the data were processed

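Total RNA of somatosensory cortex was sequenced from poly(A)-selected stranded libraries. The submitters' notes name HISAT2 2.2.1, featureCounts and DESeq2 1.31.16 with build mm10, while the study's methods name HTSeq for counting. The annotation and the strand setting are not given in the sources used here. The 5 deposited tables of 24421 genes hold a signal made by the authors: reads per gene divided by a DESeq2 size factor of the libraries in that table. Undoing the factors gave whole reads for 100.0% of 732630 values (within 0.01 reads), and tables agreed on every read. The tables also hold the authors' own mean, log2 fold change, error, statistic and p-values for each gene, which were not used. Of 16 labelled samples 12 had columns, and 4 were not analysed here.

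Each pair of groups was tested in its own table with limma 3.58.1 (R 4.3.3; lmFit and eBayes with trend, 4 residual degrees of freedom) on log2(normalized count + 1) over all genes with a read. Both genotypes and the interaction were fitted on the 12 libraries normalized together (8 residual degrees of freedom). Benjamini-Hochberg adjustment ran over all genes tested. The test was also run on simulated data with known changes. Since reads were recovered, edgeR 4.0.16 and DESeq2 1.42.0 were run on them as alternatives, beside other pseudocounts (0.5 and 5), a mean of at least 10, centring, thinning to 26504840 reads, a replicate block, each library left out, and the Xist libraries modelled or left out. The design foresaw a count test as an alternative for this unit. Counts over the pathway lists under these settings were added after seeing the data.

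The receptors and gene lists were chosen with earlier results of these data known. The rule for names was all 10 receptors, the up to 12 pathway genes with the lowest p among those past the threshold per comparison, the 2 genes most correlated with each receptor of mean 50 or more, and Il1rap and Xist. Replicate numbers are shared by few libraries and were not used as pairs. Gene positions come from GENCODE M21, which matched 95.8% of symbols, and promoters from RefSeq. Depth was 26504840 to 71857505 reads, so precision differs between controls and SD.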

Additional observations from a re-analysis of the deposited data

How the results depend on the processing

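With 3 libraries per group and as few as 1 read of a receptor in a library, the counts of receptors past the threshold depended on the setting. Only 1 control per genotype lacked Xist reads, so fits that model or leave out the others separate SD from Xist status by those 2 controls. Over both genotypes the count of 6 was 3 with the replicate block, 5 with thinned reads (Tlr2 lost), 1 with the Xist term and 2 without the Xist libraries, and 5 to 6 when each library was left out. In wild-type mice the count of 2 was 1 with DESeq2 (Tlr7, beside 26.3% of all genes), thinned reads (Tlr7, 22.9%) and all 4 groups in one fit (Tlr4, 24.3%). It was 0 with the replicate block. With the Xist term it was also 1, beside 19.3% of all genes, but that receptor was Tlr9 (-0.54, adjusted p = 0.0298, limma). Tlr4 (adjusted p = 0.182) and Tlr7 (adjusted p = 0.113) were both lost there. In AcPb-/- mice the count of 2 was 1 with DESeq2 (28.2% of all genes), a pseudocount of 5 (27.0%), thinned reads (25.1%) and the Xist term (24.7%). It was 0 with the replicate block, but 3 with all 4 groups in one fit (30.9%), where Tlr3 also passed. Within a genotype the replicate block called 0 genes of any kind, so its count of 0 says nothing about the receptors. Without the Xist libraries 687 of all genes passed in wild-type mice and 2097 in AcPb-/- mice, against 5186 and 5633 as reported. Leaving out each library gave 0 to 2 in each genotype. Of all genes, 13.3% to 30.7% passed in these fits in wild-type mice and 16.6% to 26.6% in AcPb-/- mice. Over both genotypes 36.9% to 42.0% did. Pseudocount 0.5, centring, the mean filter and edgeR gave the same counts. No setting brought a receptor past the threshold between genotypes or in the interaction. The replicate block rests on 2 shared numbers per pair of groups, whose deviations correlated at 0.10 and -0.07 in wild-type mice, -0.14 and -0.02 in AcPb-/- mice and 0.22 and 0.23 between the SD groups, so numbers were not taken as pairs. Over all genes, 8707 genes passed over both genotypes, 7752 with the block, 6451 with the Xist term and 5134 without the Xist libraries. No paired analysis was possible between the control groups because they share 1 number.

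Signs turned mainly where the difference was near 0, and no receptor changed sign in a comparison in which it had passed. With the Xist term Tlr5 turned to -0.39 in wild-type mice, -0.17 in AcPb-/- mice and -0.28 over both, and without the Xist libraries to -0.32, -0.23 and -0.28. Without the Xist libraries the genotype difference in controls turned to 0.088 for Tlr5, -0.32 for Tlr6 and -1.03 for Tlr8, and the interaction to 0.13 for Tlr1, 0.12 for Tlr2, 0.30 for Tlr6, 0.22 for Tlr7 and 1.38 for Tlr8. With the replicate block Tlr5 turned to -0.26 in wild-type mice and Tlr6 to 0.0047 in AcPb-/- mice, the genotype difference after SD to 0.15 for Tlr2, 0.13 for Tlr6 and 0.0087 for Tlr7, and the interaction to 0.052 for Tlr2, 0.0032 for Tlr7 and 0.25 for Tlr8. With thinned reads Tlr8 turned to -0.091 between genotypes after SD. The cause of these changes was not tested.

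When 1 library at a time was left out, differences that crossed 0 ranged in wild-type mice from -0.12 to 0.14 (Tlr1), -0.14 to 0.22 (Tlr5) and -0.37 to 0.12 (Tlr6), in AcPb-/- mice from -0.12 to 0.00039 (Tlr1), and over both genotypes from -0.094 to 0.038 (Tlr1). Between genotypes in controls they ranged from -0.16 to 0.077 (Tlr1), -0.087 to 0.019 (Tlr2), -0.0012 to 0.062 (Tlr3), -0.28 to 0.15 (Tlr5), -0.19 to 0.27 (Tlr6), -0.22 to 0.035 (Tlr7) and -0.038 to 0.23 (Tlr9). After SD they ranged from -0.19 to 0.10 (Tlr2), -0.17 to 0.036 (Tlr3), -0.15 to 0.083 (Tlr4), -0.035 to 0.30 (Tlr5), -0.21 to 0.24 (Tlr6), -0.38 to 0.022 (Tlr7) and -0.033 to 0.11 (Tlr13). In the interaction they ranged from -0.21 to 0.051 (Tlr1), -0.15 to 0.14 (Tlr2), -0.30 to 0.19 (Tlr6), -0.28 to 0.12 (Tlr7) and -0.88 to 0.32 (Tlr8).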
